A study of Saccharomyces cerevisiae with 11 samples.

Results

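The genes described are the 8 that encode the subunits of TRiC, also called CCT, the cytosolic chaperonin of budding yeast: *TCP1* (YDR212W), *CCT2* (YIL142W), *CCT3* (YJL014W), *CCT4* (YDL143W), *CCT5* (YJR064W), *CCT6* (YDR188W), *CCT7* (YJL111W) and *CCT8* (YJL008C). They were chosen by name, as the known members of the complex, and make up 8 of the 7126 genes in the count table. All 8 passed the filter on low counts, which left 6321 tested genes. Their transcripts were compared between yeast cells expressing a short or a long polyglutamine fragment of huntingtin (Htt), each with or without additional *SLX5*, a gene for a subunit of a SUMO-targeted ubiquitin ligase (STUbL).

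TRiC is a large barrel built of stacked rings, in which each of the paralogous subunits has a fixed place. An unfolded protein enters the central cavity, and ATP binding and hydrolysis by the subunits close a built-in lid over it. Actin and the tubulins are its best known clients, and the co-chaperone prefoldin hands them over from the ribosome. All of the subunit genes are essential in yeast. The complex also binds polyglutamine-expanded Htt and reduces its aggregation in yeast and mammalian cells.

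The 4 groups were yeast strains of the W303 background, grown at 25°C in synthetic medium with 2% raffinose and then given 2% galactose for 4 h. Every strain carried an integrated, galactose-inducible gene for a GFP-tagged Htt fragment with a nuclear localization signal (NLS), named by the number of glutamines in its tract as Htt-25Q or Htt-103Q, and a low-copy *HIS*-marked *CEN* plasmid. This plasmid was either an empty vector ([V]) or held *SLX5* ([*SLX5*]), so the cells with plasmid-borne *SLX5* also kept the chromosomal gene. Htt-25Q [V] had 2 libraries (clones a and b), and the groups Htt-103Q [V], Htt-103Q [*SLX5*] and Htt-25Q [*SLX5*] had 3 (a, b and c). The clone letters name separate clones. SDs below are the spread between the libraries of a group, while SEs come from 1 fit to all 4 groups. Each tract length is represented by 1 integrated strain, so an effect of the tract and any other difference between the pair of integrants cannot be told apart. No library without an induced Htt fragment was analysed here.

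Library totals ran from 19942070 to 29440801 estimated counts, of which the 8 subunit genes took between 0.156% and 0.297%. Ribosomal RNA made up 1.02% to 2.40% of the counts of the 4 libraries with clone letter a and 0.254% to 0.958% of the other 7. *SLX5* itself, the check of the plasmid label, stood at 1147 to 1216 counts-per-million (CPM) in Htt-25Q [*SLX5*] against 94.4 and 99.6 in Htt-25Q [V], and at 494 to 752 in Htt-103Q [*SLX5*] against 50.1 to 65.2 in Htt-103Q [V]. On the first principal component, which held 65.8% of the variance, the Htt-25Q libraries lay between -30.0 and -22.9, while Htt-103Q [V] c (21.3) was the lowest of its group and Htt-103Q [*SLX5*] b (7.52) was the Htt-103Q library closest to Htt-25Q. Values are CPM scaled by TMM (trimmed mean of M-values) unless TPM (transcripts-per-million, which corrects for transcript length) is named. In RNA from whole cultures, fewer cells with a transcript and less of it per cell cannot be told apart.

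The promoters of the 8 genes share a short sequence, which is shown before the transcript levels. Any part of this sequence in those levels was not tested. Promoter windows were taken from the RefSeq sequence of build R64, from 250 bases before to 50 bases after the start of each gene, which in this annotation is the start codon. GTGGCNA (N, any base), searched on both strands, was present in the windows of 8 of 8 subunit genes and in 8.92% of the 6020 windows of all genes. These letters were picked after the 8 windows had been read, so the shares are a description and no test. Each stretch below is written 5′ to 3′ on the strand that reads GTGGC, with the match in capitals.
TCP1: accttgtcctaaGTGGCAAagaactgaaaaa
CCT2: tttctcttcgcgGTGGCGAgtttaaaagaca
CCT3: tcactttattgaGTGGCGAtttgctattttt
CCT4: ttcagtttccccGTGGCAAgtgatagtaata
CCT5: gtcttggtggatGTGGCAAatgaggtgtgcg
CCT6: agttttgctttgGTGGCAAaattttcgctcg
CCT7: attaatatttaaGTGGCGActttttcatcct
CCT8: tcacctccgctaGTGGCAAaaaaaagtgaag
The stretches lie at chrIV:887071-887101 (plus strand) for *TCP1*, chrIX:83187-83217 (plus) for *CCT2*, chrX:407440-407470 (minus) for *CCT3*, chrIV:199827-199857 (minus) for *CCT4*, chrX:555819-555849 (plus) for *CCT5*, chrIV:836235-836265 (plus) for *CCT6*, chrX:207709-207739 (plus) for *CCT7* and chrX:421751-421781 (minus) for *CCT8*. The matches printed began between 83 (*CCT5*) and 174 (*CCT6*) bases before the start codon. They were on the strand of the gene in 6 genes and on the opposite strand in *CCT3* and *CCT4*. *CCT2* and *CCT4* each held another match, 54 and 126 bases before the start codon, and *CCT8* held one behind it. The base at N was A in *TCP1*, *CCT4*, *CCT5*, *CCT6* and *CCT8* and G in *CCT2*, *CCT3* and *CCT7* in the matches printed.

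GTGGCNA contains most of GGTGGCAAA, the element bound by Rpn4, the transcription factor of the proteasome genes. The complete element was in 72 of the 6020 windows and, of the 8, in that of *CCT6* alone, 175 bases before the start. The heat shock element (HSE, GAANNTTC or TTCNNGAA), bound by Hsf1, was in the window of *CCT7* alone, against 22.6% of all windows and 12 of the 18 heat shock chaperone genes listed further on. The stress response element (STRE, AGGGG) was in none of the 8 and in 21.6% of all windows. The ribosome biogenesis motifs PAC (GATGAG; 20.3% of windows) and RRPE (AAAATTTT; 542 of 6020) were found in *CCT2* and *CCT5* and in *CCT5* and *CCT6*, respectively. In *CCT2* the PAC match overlaps the start codon, and in *CCT6* the RRPE match overlaps the Rpn4 element. A match is not evidence of binding, and the lack of one says only that these letters are not in the window.

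The complete windows of the genes with the largest and the smallest rise between Htt-25Q [V] and Htt-103Q [V] are printed for comparison, GTGGCNA again in capitals. *CCT8* is on the minus strand (chrX:421614-421913) and *TCP1* on the plus strand (chrIV:886982-887281). Neither window held any of the other motifs.
CCT8: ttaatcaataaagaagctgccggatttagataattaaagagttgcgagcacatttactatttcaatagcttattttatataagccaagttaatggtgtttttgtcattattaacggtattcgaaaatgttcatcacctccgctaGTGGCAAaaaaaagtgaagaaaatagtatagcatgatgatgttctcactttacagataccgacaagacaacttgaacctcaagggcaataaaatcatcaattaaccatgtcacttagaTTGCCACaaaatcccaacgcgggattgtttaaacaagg
TCP1: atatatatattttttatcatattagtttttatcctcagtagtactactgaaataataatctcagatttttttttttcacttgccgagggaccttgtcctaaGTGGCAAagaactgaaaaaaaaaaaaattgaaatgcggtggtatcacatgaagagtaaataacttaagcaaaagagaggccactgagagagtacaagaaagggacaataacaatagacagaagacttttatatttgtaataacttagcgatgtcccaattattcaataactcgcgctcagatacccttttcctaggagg
In *CCT8* the capitals TTGCCAC mark the second match, which reads GTGGCAA on the opposite strand.

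The first comparison asked how the subunit transcripts differed between Htt-103Q and Htt-25Q cells that both carried the empty vector. All 8 were higher in Htt-103Q [V] than in Htt-25Q [V]: the fold change ran from 1.21 (*TCP1*) to 1.85 (*CCT8*), and every Htt-103Q [V] library was above every Htt-25Q [V] library for each gene. The summed level of the 8 genes was 1746 ± 44.7 CPM (SD, n = 2) in Htt-25Q [V] and 2710 ± 241 CPM (n = 3) in Htt-103Q [V]. With edgeR's quasi-likelihood test and Benjamini-Hochberg adjustment over all 6321 tested genes, 8 of 8 were called higher (adjusted p under 0.05), where 27.3% of all tested genes were called higher and 56.8% in either direction. Groups that did not overlap, with Htt-103Q [V] higher, were found for 33.9% of tested genes. The median log2 fold change of the 8 was 0.66, against -0.02 over all tested genes.

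*CCT8*, which encodes the theta subunit, rose most. It stood at 186.1 and 186.2 CPM in Htt-25Q [V] and at 376.2, 353.3 and 301.8 CPM in Htt-103Q [V] a, b and c. The lowest Htt-103Q [V] library was thus far above both Htt-25Q [V] libraries, and the log2 fold change was 0.89 (SE 0.13, adjusted p = 0.000206). *CCT5* (epsilon subunit) stood at 134.5 and 134.8 CPM in Htt-25Q [V] against 249.5, 245.1 and 198.2 CPM, a log2 difference of 0.78 (SE 0.12, adjusted p = 0.000275). *CCT2* (beta subunit) stood at 265.6 and 257.8 CPM against 477.5, 455.8 and 370.6 CPM, a log2 difference of 0.73 (SE 0.12, adjusted p = 0.000362). In all of these 3 genes the Htt-25Q [V] libraries differed little, and Htt-103Q [V] c was the lowest library of its group.

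*CCT7* (eta subunit), *CCT4* (delta) and *CCT3* (gamma) were intermediate, with log2 differences of 0.68 (SE 0.11), 0.65 (SE 0.09) and 0.54 (SE 0.09) and adjusted p between 0.000194 and 0.000411. *CCT7* stood at 241.5 and 241.1 CPM in Htt-25Q [V] and at 387.4, 410.2 and 364.3 CPM in Htt-103Q [V]. *CCT3*, the gene with the highest level in Htt-25Q cells, stood at 316.7 and 283.1 CPM against 450.0, 454.6 and 401.8 CPM. *CCT4* stood at 252.2 and 236.8 CPM against 408.7, 389.3 and 349.7 CPM. These genes had a wider gap between the Htt-25Q [V] libraries in *CCT3* than in *CCT7*, and no overlap of the groups in any of them.

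*CCT6* (zeta subunit) and *TCP1* (alpha) rose least. *CCT6* stood at 266.8 and 258.8 CPM in Htt-25Q [V] and at 386.2, 369.8 and 313.6 CPM in Htt-103Q [V], a log2 difference of 0.44 (SE 0.10, adjusted p = 0.00331). *TCP1* stood at 114.1 and 115.5 CPM against 136.4, 148.2 and 132.8 CPM, a log2 difference of 0.28 (SE 0.08, adjusted p = 0.00823). Without the 4 libraries of clone letter a, which held the most ribosomal RNA, 6 of the 8 genes were still called higher, where 16.4% of tested genes were, while *TCP1* and *CCT6* missed the threshold (adjusted p = 0.107 and 0.0705). *TCP1* also missed it without Htt-25Q [V] a (adjusted p = 0.055).

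**Figure D1:**
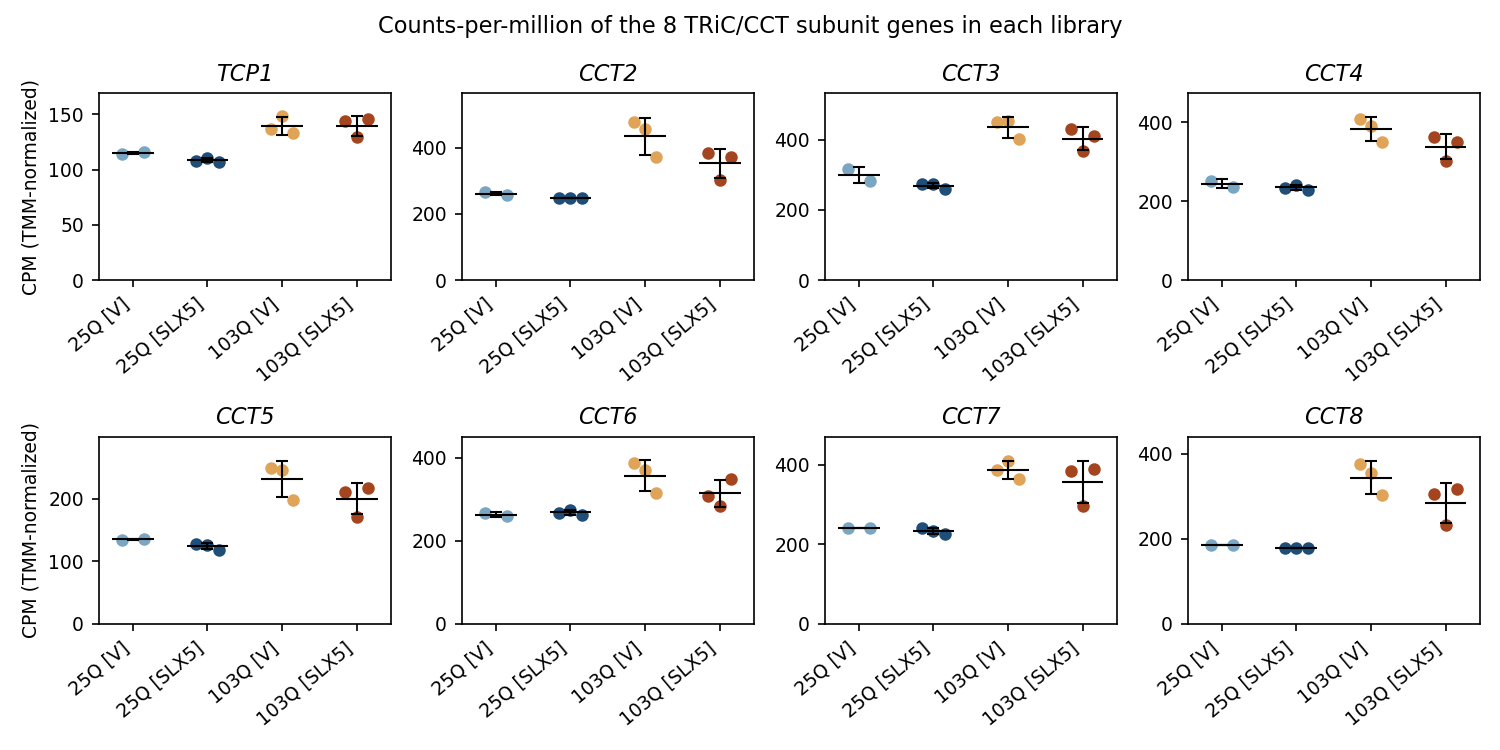
TMM-scaled CPM of each subunit gene (y axis, from 0) in the libraries of the 4 groups (x axis); points are libraries in the order a, b, c, lines are means and bars are SD. For all 8 genes every Htt-103Q library lies above every Htt-25Q library, and Htt-103Q [V] c and Htt-103Q [SLX5] b are the lowest of their groups.

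The same contrast of tract lengths in cells with plasmid-borne *SLX5* used 6 other libraries. All 8 genes were again called higher in Htt-103Q [*SLX5*] than in Htt-25Q [*SLX5*], where 26.9% of all tested genes were called higher and 53.5% in either direction. None of the 8 had overlapping groups (31.5% of tested genes had separate groups with Htt-103Q [*SLX5*] higher). The summed level was 1664 ± 30.5 CPM (SD, n = 3) in Htt-25Q [*SLX5*] and 2388 ± 262 CPM (n = 3) in Htt-103Q [*SLX5*], and the median log2 fold change was 0.55, against -0.01 over all tested genes.

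*CCT5* and *CCT8* were again the genes with the largest change. *CCT5* stood at 127.3, 126.3 and 118.5 CPM in Htt-25Q [*SLX5*] and at 211.0, 171.2 and 216.5 CPM in Htt-103Q [*SLX5*] (log2 fold change 0.69, SE 0.10, adjusted p = 0.000324). *CCT8* stood at 177.4, 178.9 and 178.7 CPM against 303.9, 231.1 and 316.9 CPM (0.67, SE 0.11, adjusted p = 0.00057). In both genes Htt-103Q [*SLX5*] b was the lowest of its group and well above the Htt-25Q libraries. *CCT7*, *CCT3*, *CCT4* and *CCT2* followed with log2 fold changes of 0.61, 0.58, 0.52 and 0.51 (SE 0.08 to 0.10, adjusted p between 0.000145 and 0.00173).

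*TCP1* stood at 108.1, 110.3 and 106.6 CPM in Htt-25Q [*SLX5*] and at 143.5, 129.4 and 146.0 CPM in Htt-103Q [*SLX5*], a log2 difference of 0.37 (SE 0.07, adjusted p = 0.000913). *CCT6* had the smallest change: 267.8, 273.5 and 262.8 CPM in Htt-25Q [*SLX5*] against 308.5, 284.7 and 349.0 CPM in Htt-103Q [*SLX5*], a log2 difference of 0.23 (SE 0.09, adjusted p = 0.0488). Its groups did not overlap, but Htt-103Q [*SLX5*] b exceeded the highest Htt-25Q [*SLX5*] library only narrowly. The *CCT6* call lay close to the threshold and was lost in 11 of 23 alternative settings, with adjusted p up to 0.199.

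Plasmid-borne *SLX5* was compared with the vector within each tract length. These comparisons share their libraries with the ones above. Within Htt-25Q, none of the 8 genes was called by edgeR's quasi-likelihood test (adjusted p from 0.633 to 0.949), where 0.0475% of all tested genes were called; 0 of the 8 had an unadjusted p under 0.05, against 8.94% of tested genes. The log2 fold change of Htt-25Q [*SLX5*] over Htt-25Q [V] was negative in 7 of the 8, from -0.16 (*CCT3*) to 0.03 (*CCT6*), with a median of -0.07 against 0.00 over all tested genes. In 6 of the 8 the Htt-25Q [*SLX5*] libraries were all below both Htt-25Q [V] libraries, which held for 18.8% of all tested genes. The 8 genes were read in the same 5 libraries, so these 6 are not separate observations. The 95% interval was widest for *CCT8*, from -0.34 to 0.21, and for *CCT3* ran from -0.35 to 0.03. These intervals and p-values use a spread pooled over the 4 groups. For *CCT8* the SDs ([V] first) were 0.106 and 0.79 CPM in the Htt-25Q groups, against 38.1 and 46.3 CPM in the Htt-103Q groups. In a fit of the compared groups alone, 1226 of 6202 tested genes had an unadjusted p under 0.05, against 565 of 6321 here. None of the 8 genes was called in that fit either.

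Within Htt-103Q, 0 of the 8 genes were called by edgeR's quasi-likelihood test. Of all tested genes 0% were called lower, and 0.0158%, a single gene, *SLX5*, was called in either direction. The number of genes called depended on the test. DESeq2 called 296 genes in this comparison (104 lower), and a likelihood ratio procedure modelled on the study's methods called 302 (95 lower). The log2 fold change of Htt-103Q [*SLX5*] over Htt-103Q [V] was negative in 7 of the 8, with a median of -0.18 against 0.00 over all tested genes, and an unadjusted p under 0.05 was found for 3 of the 8, against 23.2% of tested genes. The groups overlapped for every subunit gene, while 8.43% of tested genes had Htt-103Q [*SLX5*] lower with no overlap. *CCT2* had the largest difference: 477.5, 455.8 and 370.6 CPM in Htt-103Q [V] against 382.9, 303.8 and 371.5 CPM in Htt-103Q [*SLX5*], a log2 difference of -0.30 (95% interval -0.52 to -0.08, adjusted p = 0.154). *CCT8* followed with -0.28 (-0.52 to -0.03, adjusted p = 0.181), and *CCT4* had -0.18 (-0.36 to -0.00145, adjusted p = 0.213). *TCP1* had 0.01 (-0.14 to 0.15, adjusted p = 0.969). The intervals of *CCT5* (-0.44 to 0.02), *CCT6* (-0.38 to 0.01), *CCT3* (-0.28 to 0.06) and *CCT7* (-0.33 to 0.09) included 0. Those of *CCT2*, *CCT8* and *CCT4* left out 0 with a spread pooled over the 4 groups. For all 8 genes the SD was larger in each Htt-103Q group than in each Htt-25Q group. In a fit of the compared groups alone, 902 of 6241 tested genes had an unadjusted p under 0.05, against 1468 of 6321 here.

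1 library decided the calls within Htt-103Q. Without Htt-103Q [V] c, whose summed level was 2433 CPM against 2872 and 2826 CPM in Htt-103Q [V] a and b, 5 of the 8 genes were called lower in Htt-103Q [*SLX5*], where 11.9% of tested genes were: *CCT2* (log2 fold change -0.41, adjusted p = 0.00901), *CCT4* (-0.25, 0.0446), *CCT5* (-0.32, 0.0301), *CCT6* (-0.28, 0.0295) and *CCT8* (-0.37, 0.0316). In the other 22 alternative settings no subunit gene was called lower.

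Whether plasmid-borne *SLX5* acted differently in the 2 tract lengths was tested as an interaction, its effect in Htt-103Q minus that in Htt-25Q. It was called for none of the 8 genes by edgeR's quasi-likelihood test (adjusted p from 0.793 to 0.947), nor for any of the tested genes, and 0 of the 8 had an unadjusted p under 0.05, against 5.51% of tested genes. The estimates ran from -0.23 (*CCT2*, 95% interval -0.56 to 0.11) to 0.09 (*TCP1*, -0.13 to 0.31) on the log2 scale. No subunit gene was thus shown to respond to plasmid-borne *SLX5* differently in Htt-103Q than in Htt-25Q. The *SLX5* transcript itself was lower in Htt-103Q cells. It stood at 494 to 752 CPM against 1147 to 1216 with plasmid-borne *SLX5*, and at 50.1 to 65.2 against 94.4 and 99.6 with the vector. Any part of this difference in the interaction was not tested.

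**Figure D2:**
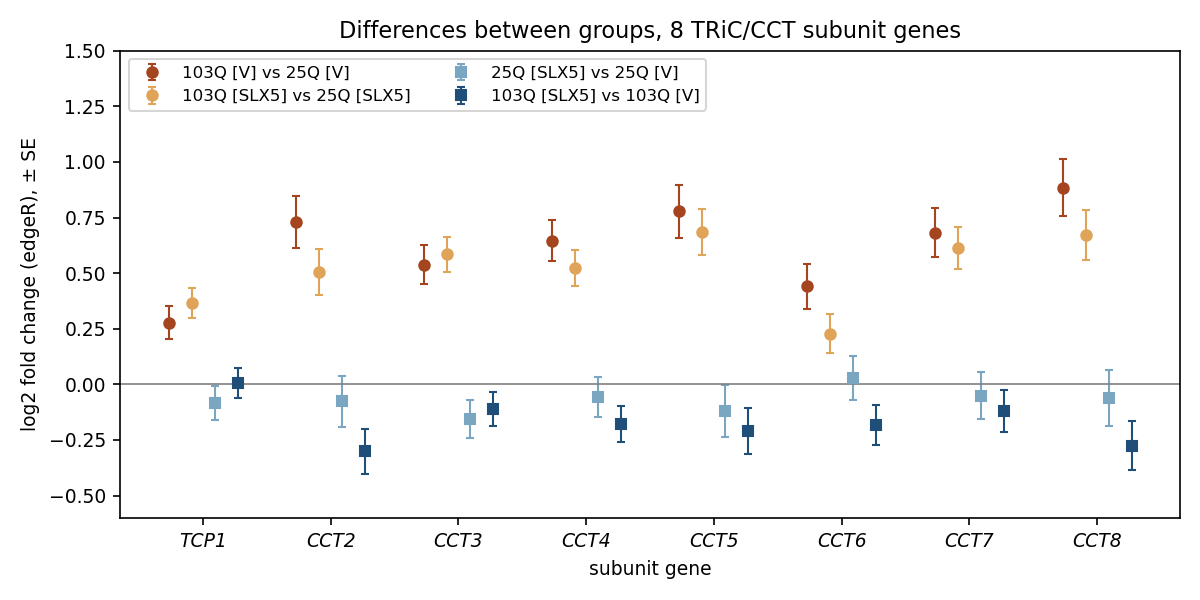
Log2 fold change of each subunit gene (y axis, points ± SE) in the 4 comparisons between groups, by gene (x axis). Circles, the Htt-103Q over Htt-25Q comparisons, lie between 0.23 and 0.89, and squares, the SLX5 over vector comparisons, between -0.30 and 0.03.

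The subunits stand in equal numbers in the assembled complex, whereas their transcripts did not stand at equal levels. By TPM in Htt-25Q [V] (n = 2), *CCT3* was the highest with 123 ± 8.52 (SD), followed by *CCT2* (109 ± 1.21), *CCT6* (105.0 ± 1.23), *CCT4* (101.4 ± 3.51), *CCT7* (95.6 ± 0.856), *CCT8* (71.1 ± 0.742), *CCT5* (52.1 ± 0.608) and *TCP1* (44.7 ± 0.827). No neighbours in this order had overlapping ranges, which here rest on 2 libraries. In Htt-25Q [*SLX5*] (n = 3) *CCT6* (106 ± 3.37) stood above *CCT2* (102 ± 1.95). There the neighbours *CCT3*, *CCT6*, *CCT2* and *CCT4* had overlapping ranges, while those below did not. In Htt-103Q [V] (n = 3) the order was *CCT2* (196 ± 25.0), *CCT3* (193 ± 12.3), *CCT4* (172 ± 13.2), *CCT7* (166 ± 9.10), *CCT6* (154 ± 16.2), *CCT8* (142 ± 15.6), *CCT5* (96.6 ± 11.7) and *TCP1* (58.6 ± 3.12). Here the neighbours from *CCT2* to *CCT8* all overlapped, while *CCT5* and *TCP1* were set apart.

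With plasmid-borne *SLX5*, *CCT3* again had the highest mean, 109 ± 3.27 TPM in Htt-25Q [*SLX5*] and 178 ± 17.7 TPM in Htt-103Q [*SLX5*] (n = 3 each), and *TCP1* the lowest, 41.8 ± 1.26 and 58.6 ± 4.86 TPM. *TCP1* was the lowest of the 8 in every one of the 11 libraries. The ratio of the highest to the lowest subunit was 2.58 to 2.92 in the Htt-25Q libraries and 2.97 to 3.74 in the Htt-103Q libraries. By mean TPM over the 11 libraries, the subunit genes stood above 59.2% (*TCP1*) to 81.6% (*CCT3*) of all tested genes.

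The rise with Htt-103Q was unequal among the subunits, and their shares of the summed TPM of the 8 shifted. This was tested for each subunit by an exact permutation test (two-sided) of the Htt-103Q and Htt-25Q labels within each plasmid, with 200 relabelings, a smallest possible p of 0.005 and Benjamini-Hochberg adjustment over the 8 genes. The test was chosen after the fold changes had been seen. The share of *CCT6* was 14.97% and 16.02% in Htt-25Q [V] and Htt-25Q [*SLX5*] and 13.07% and 13.11% in Htt-103Q [V] and Htt-103Q [*SLX5*], a difference of -2.40 percentage points (adjusted p = 0.0133). The share of *TCP1* fell from 6.37% and 6.30% to 4.99% and 5.68% (-0.999 points, adjusted p = 0.0133). In the other direction, *CCT8* went from 10.1% and 10.2% to 12.1% and 11.3% (1.49 points, adjusted p = 0.0133) and *CCT5* from 7.42% and 7.17% to 8.18% and 8.04% (0.81 points, adjusted p = 0.02). In these 4 genes no Htt-103Q library overlapped any Htt-25Q library.

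The shares of *CCT2* (0.45 points), *CCT3* (-0.14), *CCT4* (0.10) and *CCT7* (0.69) overlapped between Htt-103Q and Htt-25Q, with adjusted p between 0.112 and 0.785. The shares add up to the whole, so a higher share of one subunit lowers the others. The 4 shifts kept their direction in all 14 alternatives and missed the threshold only without the libraries of clone letter a. There the smallest p that the exact permutation test can give is 0.0556. *TCP1*, *CCT6* and *CCT8* had this p before adjustment in that test, while *CCT5* had 0.111.

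**Figure D3:**
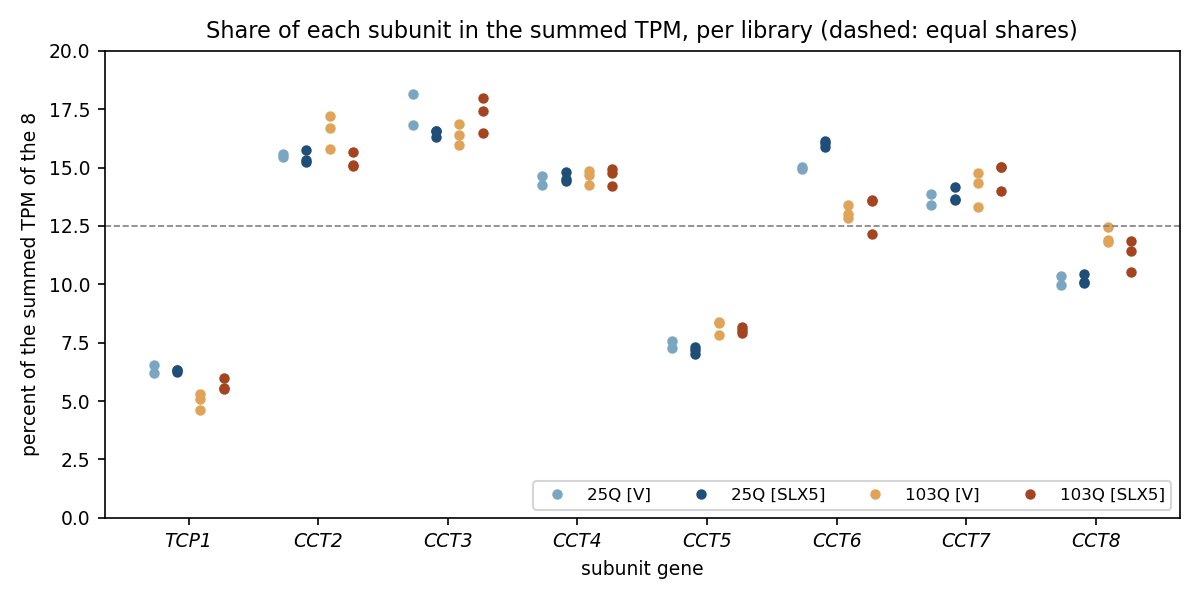
Percent of the summed TPM of the 8 subunit genes taken by each gene (y axis) in every library, coloured by group (x axis, genes); the dashed line marks equal shares. CCT8 and CCT5 take a larger and CCT6 and TCP1 a smaller share in the Htt-103Q libraries, without overlap with the Htt-25Q libraries.

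The profile of each subunit gene over the 11 libraries was compared with the mean profile of the other 7, so that no gene was part of its own reference, as the root mean square (RMS) difference of log2 CPM centred on each gene's mean. *CCT4* was closest (RMS difference 0.0318), followed by *CCT3* (0.0624), *CCT7* (0.067), *CCT2* (0.0712), *CCT5* (0.102), *CCT8* (0.133), *CCT6* (0.154) and *TCP1* (0.17). Among 5383 genes averaging 10 CPM or more, 715 genes outside the complex were closer to the same reference than *TCP1* was and 567 closer than *CCT6*, whereas none was closer than *CCT4*. The 5 genes outside the complex closest to the mean profile of all 8 were *GCD2*, a subunit of translation factor eIF2B (RMS difference 0.0472), *TIF34*, a subunit of eIF3 (0.0493), *NGL2* (0.0493), YGL114W (0.0493) and *MET4*, the transcription factor of the sulfur amino acid genes (0.0505). These distances rest on libraries that the Htt-103Q and Htt-25Q strains split into separate sets, which any gene with a similar change shares.

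Prefoldin is the co-chaperone that delivers clients to TRiC. Of its 6 subunit genes, 0 were called higher and 2 lower in Htt-103Q [V] than in Htt-25Q [V], where 29.5% of all tested genes were called lower, and their median log2 fold change was -0.08. *PAC10* fell (log2 fold change -0.70, SE 0.10, adjusted p = 0.00014), as did *GIM5* (-0.36, SE 0.08, adjusted p = 0.00323), while *GIM3* (0.08), *GIM4* (0.13), *PFD1* (-0.02) and *YKE2* (-0.13) were not called. In Htt-103Q [*SLX5*] over Htt-25Q [*SLX5*] only *PAC10* of these 6 was called (-0.50, SE 0.09, adjusted p = 0.000669; 26.6% of all tested genes were called lower).

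Of 7 genes for TRiC clients, 2 were called higher and 1 lower in Htt-103Q [V] than in Htt-25Q [V], with a median of -0.03 (27.3% of all tested genes were called higher and 29.5% lower). *ACT1*, the actin gene, was not called (-0.03, adjusted p = 0.725), nor were the tubulin genes *TUB1* (-0.13) and *TUB2* (0.08) or *CDC55* (-0.05), a regulatory subunit of protein phosphatase 2A. *TUB3*, the minor alpha-tubulin gene, rose (0.60, SE 0.12, adjusted p = 0.00113), as did *CDC20*, an activator of the anaphase-promoting complex (0.53, SE 0.10, adjusted p = 0.00115), whereas *CDH1*, another of its activators, fell (-0.35, SE 0.10, adjusted p = 0.0148). *TUB1* and *TUB3* are closely related copies whose reads may have been split by the counting. In Htt-103Q [*SLX5*] over Htt-25Q [*SLX5*], 2 of the 7 were called higher (*TUB3*, 0.28, and *CDC20*, 0.50) and 2 lower (*TUB1*, -0.19, and *CDH1*, -0.33), where 26.9% of all tested genes were called higher and 26.6% lower. In both comparisons the share of client genes called higher lay near that of all genes.

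Other chaperone systems were counted in the same way for Htt-103Q [V] over Htt-25Q [V]. Of 18 heat shock chaperone genes, 12 were called higher and 0 lower, with a median of 0.58, while 27.3% of all tested genes were called higher and 29.5% lower. The 4 with the smallest adjusted p were *YDJ1*, an Hsp40 (1.19), *HSC82*, an Hsp90 (1.16), *CPR6*, an Hsp90 co-chaperone (1.02), and *SSA2*, an Hsp70 (1.02), each above the largest log2 fold change among the TRiC subunits. Of 7 genes of the ribosome-associated chaperones, which bind nascent chains, 4 were called higher (*SSZ1*, 0.49, *SSB2*, 0.41, *ZUO1*, 0.40, and *SSB1*, 0.38) and 1 lower (*BTT1*, -0.64). The mitochondrial chaperonin genes *HSP60* and *HSP10*, whose products are related to TRiC in function but act in another compartment, were both called higher (0.48 and 0.49). In Htt-103Q [*SLX5*] over Htt-25Q [*SLX5*], 9 of the 18 heat shock genes, 4 of the 7 ribosome-associated genes and both mitochondrial genes were called higher and 0 of them lower (26.9% and 26.6% of all tested genes). Over the 40 genes of these 5 lists, edgeR's quasi-likelihood test called 0 in either *SLX5* comparison or the interaction. An unadjusted p under 0.05 was found for 4 within Htt-25Q, 8 within Htt-103Q and 6 in the interaction. The shares of all tested genes were 8.94%, 23.2% and 5.51%, respectively. Within Htt-103Q, 2 of the 40 were called lower by DESeq2 (*SSA2* and *YDJ1*, where 1.65% of tested genes were) and 1 by the likelihood ratio procedure (*SSA2*, 1.43%). Without Htt-103Q [V] c, 10 of the 40 were called lower and 2 higher (11.9% and 14.1% of tested genes).

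**Figure D4:**
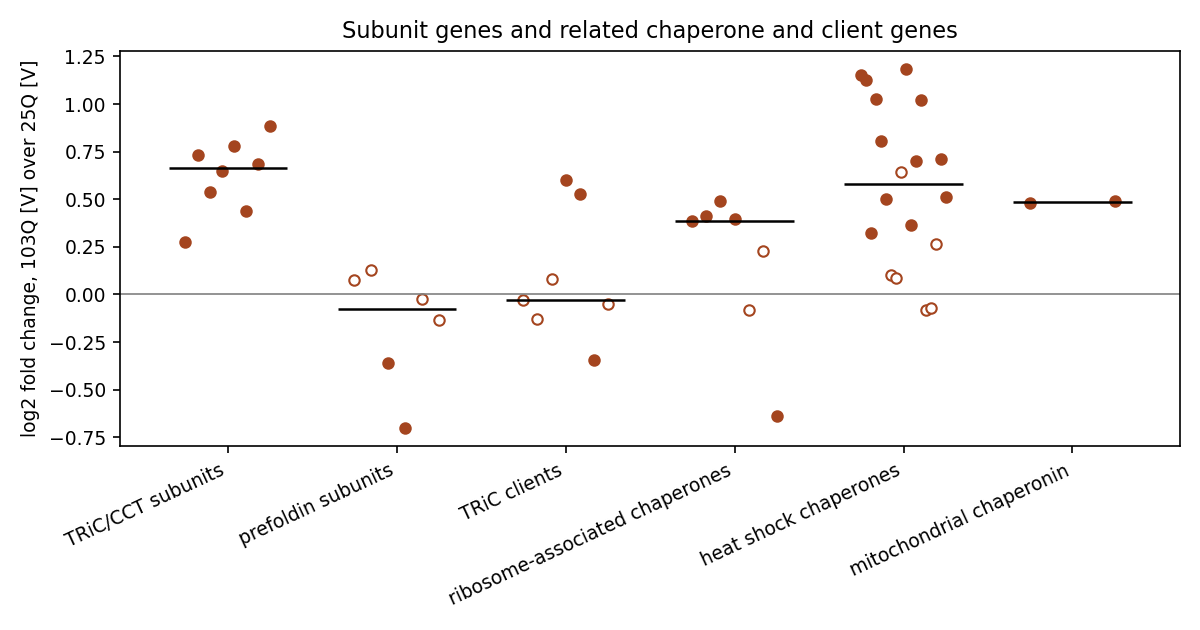
Log2 fold change of Htt-103Q [V] over Htt-25Q [V] (y axis) for each gene of the TRiC subunits and 5 other lists (x axis); filled points were called under an adjusted p of 0.05, open points were not, and lines are list medians. All 8 TRiC genes are filled and above 0 (median 0.66), while the prefoldin genes have a median of -0.08 and no filled point above 0.

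Other genes with GTGGCNA were called in both directions. Of the 507 other tested genes with the sequence in their window, 33.7% were called higher and 30.6% lower in Htt-103Q [V] than in Htt-25Q [V], against 27.4% and 30.8% of the 5252 tested genes without it. For Htt-103Q [*SLX5*] over Htt-25Q [*SLX5*] the percentages called higher were 30.6% and 27.2%. The sequence was in the windows of 2 of the 6 prefoldin genes, 1 of the 7 client genes and 1 of the 18 heat shock chaperone genes. *RPN4*, which encodes the factor named above and was added after its value was seen, stood at 162 ± 0.0354 CPM (SD, n = 2) in Htt-25Q [V] and 452 ± 31.0 CPM (n = 3) in Htt-103Q [V] (log2 fold change 1.48, SE 0.14, adjusted p = 2.85e-05). Its part in the levels of the 8 genes was not tested.

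The 8 genes lie apart from each other, on chromosomes IV (*TCP1*, *CCT4* and *CCT6*), IX (*CCT2*) and X (*CCT3*, *CCT5*, *CCT7* and *CCT8*). In build R64 each has 1 exon and overlaps no other annotated gene, and the annotated gene spans include no UTRs. *CCT8*, for instance, is at chrX:419957-421663 on the minus strand and *TCP1* at chrIV:887232-888911 on the plus strand. Of the 16 genes on either side of them, 15 were tested: 5 were called higher and 1 lower in Htt-103Q [V] than in Htt-25Q [V], and 9 were not called, with a median log2 fold change of 0.09. Of all tested genes, 27.3% were called higher and 29.5% lower in this comparison. In Htt-103Q [*SLX5*] over Htt-25Q [*SLX5*], 6 were called higher and 3 lower (26.9% and 26.6% of all tested genes), with a median of 0.18. Those called higher in Htt-103Q [V] over Htt-25Q [V] were *GCD6* beside *TCP1* (0.82), *SSL2* (0.72) and *AXL2* (0.41) beside *CCT2*, *MDV1* beside *CCT7* (0.50) and *SLY1* beside *CCT6* (0.28). *MAD3* beside *CCT3* was called lower there (-0.31). *GCD6*, which encodes another eIF2B subunit, thus had a larger log2 fold change than its neighbour *TCP1*.

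The count table also lists 5 reading frames whose systematic names are numbered next to a subunit gene and which the R64 annotation does not hold. Reads from such a frame and from the subunit gene may not be separable. YDR187C took 7.99% to 10.5% of the counts of itself and *CCT6*, YIL142C-A took 3.20% to 5.27% beside *CCT2*, and YJL009W took 1.32% to 2.51% beside *CCT8*. YIL141W beside *CCT2* and YJL015C beside *CCT3* took 0.618% at most. Adding their counts to those of the subunit genes changed no call of the 8 genes in any comparison. The shares of the summed TPM were not recomputed in this way.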

How the data were processed

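RNA of 11 yeast cultures was sequenced from stranded libraries, for which the labels name an mRNA kit and the study's methods a total RNA kit. The authors set aside a further Htt-25Q [V] library for its ribosomal RNA, and it was not analysed here. Per the labels, reads passed through bcl2fastq 2.17, Trimmomatic 0.36, STAR 2.5.1 and RSEM 1.2.22, and the reference was the S288C assembly EF4. Whether RSEM used the strand is not given in the sources used here. The deposited values are the expected counts, TPM and FPKM of RSEM for 7126 genes per library, with gene and effective lengths as the authors' file columns. Of the expected counts, 16.5% were not whole, among them those of *CCT2*, *CCT6* and *CCT8* in every library.

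Expected counts were rounded, filtered by filterByExpr over the 4 groups, scaled by TMM, and the 4 group means were fitted together (R 4.3.3, edgeR 4.0.16, limma 3.58.1). Quasi-likelihood p-values received a Benjamini-Hochberg adjustment across all 6321 genes, with calls made under 0.05. Log2 fold changes (log2 differences in the text) are positive where the first-named group is higher, and intervals use the t quantile of edgeR's total degrees of freedom. The common dispersion (0.0121) corresponds to 11.0% variation between cultures, and log2 CPM used a prior count of 2. DESeq2 1.42.0 served as an alternative. Python 3.11.15 was used with scipy 1.17.1, matplotlib 3.10.9, pandas 2.3.3 and numpy 2.4.6.

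The named genes were all 8 members, the whole prefoldin, client and mitochondrial lists, the 4 genes with the smallest adjusted p of the larger chaperone lists, the flanking genes and the 5 genes closest to the mean profile. *BTT1* and *RPN4* were named outside this rule, after their values were seen. 1 further list of the rule is not reported here. The members, lists and tests were chosen with earlier results of these data known. Alternatives were DESeq2, RLE scaling, no filter, a mean of at least 10 CPM, unrounded counts, robust dispersions, the compared groups alone, a replicate block, the likelihood ratio procedure of the methods, an adjusted p of 0.01, no clone a libraries and each library left out. Clone letters were not treated as pairs. RefSeq R64 gene lengths equalled those of the files for 8 of 8 members and for 5710 of 6048 shared genes, and positions are those of R64.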

Additional observations from a re-analysis of the deposited data

How the results depend on the processing

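For Htt-103Q [V] over Htt-25Q [V] and Htt-103Q [*SLX5*] over Htt-25Q [*SLX5*], the count of subunit genes called higher stayed within 1.5 times the main count under all 23 alternatives, and no estimate changed sign. For Htt-103Q [*SLX5*] over Htt-103Q [V], the count called lower ran from 0 to 5 as single libraries were left out (5 without Htt-103Q [V] c); all tested genes called in this comparison ran from 1 to 1647 over the alternatives, with 296 by DESeq2. There the log2 fold change of *TCP1* was -0.00989 with a mean of at least 10 CPM, -0.0287 without the clone a libraries and -0.0351 to 0.0578 with single libraries left out. In the interaction, *CCT3* was -0.0538 without the clone a libraries and -0.0369 to 0.125 with single libraries left out, *CCT5* ran from -0.195 to 0.0109 and *CCT7* from -0.139 to 0.0513. The share of *CCT3* moved by 0.287 points without the clone a libraries and by -0.471 to 0.186 points with single libraries left out. The cause of these reversals was not tested. With the clone letter as a replicate block, the *CCT6* change between Htt-103Q [*SLX5*] and Htt-25Q [*SLX5*] was 0.23 (adjusted p = 0.0694), and no other call of a subunit gene changed. Whether the letters pair the cultures was not settled. Deviations of same-letter libraries correlated above 0.1 in 7 of 15 pairs (-0.14 to 0.21), those of other pairs in 5 of 30 (-0.23 to 0.23). Without the clone a libraries, 2198 of all tested genes were called for Htt-103Q [V] over Htt-25Q [V] and 2115 for Htt-103Q [*SLX5*] over Htt-25Q [*SLX5*], against 3589 and 3379 in all libraries. Over the alternatives, 1 to 33 genes were called for Htt-25Q [*SLX5*] over Htt-25Q [V] (33 by DESeq2) and 0 to 3 in the interaction. Where Htt-25Q [V] was reduced to 1 library, its spread was taken from the other groups.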
